A study of Mus musculus with 4 samples.

Results

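The 33 genes examined here encode the enzymes of glycolysis, the glucose transporters that feed it, the lactate transporters that drain it, the kinases and catalytic subunit that control the entry of pyruvate into the mitochondrion, and the transcription factor Hif1a. They were chosen by function as a named list out of 21631 protein-coding genes on chromosomes 1 to 19 and X. A chromatin region was assigned to a gene when it overlapped the gene body or lay within 10 kb of either side. The lists of open regions of the 4 libraries were joined wherever they overlapped, which gave 90270 joined regions in all and 160 around these genes, none of them shared by 2 of the genes.

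The study used ATAC-seq, in which the Tn5 transposase inserts sequencing adapters into accessible DNA, on untreated primary cells of Scd1-deficient mice (Scd1 KO) and of littermate controls. Scd1 encodes stearoyl-CoA desaturase, which puts a double bond into saturated fatty acids. There were 4 groups of 1 library each: Scd1 KO DN3 thymocytes, control DN3 thymocytes, Scd1 KO naive CD4 T cells and control naive CD4 T cells. DN3 cells came from the thymus, by magnetic depletion of lineage-positive and CD4+ cells and then flow sorting of CD44- CD25+ cells without lineage markers, CD4 or CD8. Naive CD4 T cells came from the spleen by a magnetic bead kit. The control titles carry the letters HZ, which the labels do not explain, and the labels give neither the Scd1 allele nor the age or number of animals behind a library. With 1 library per group there is no replicate error, no test was run and no difference below has been checked against the spread between animals.

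The authors' lists held 76437 regions in KO DN3, 76814 in control DN3, 51297 in KO naive and 46576 in control naive cells, of which 143, 146, 122 and 113 lay around the glycolysis genes in the same order of libraries. The median region was 645 and 666 bp wide in KO and control DN3 cells, against 732 and 894 bp in KO and control naive cells. Read totals were not used here, so depth is unknown, and a deeper library lists more weak regions. Of 9 genes that mark DN3 cells, all had a region at a gene end in both DN3 lists, against 6 in the KO naive and 5 in the control naive list, with Ptcra, Rag2 and Dntt called in neither naive list. All 7 naive CD4 markers were called in every list, and Cd3e is counted among both the DN3 and the naive CD4 markers. Of all protein-coding genes, 66.5% had a gene-end region in KO DN3, 66.7% in control DN3, 58.6% in KO naive and 57.0% in control naive cells. Genes that mark other cell types were also called in part: in each list 2 of 5 B cell, 3 of 5 myeloid and 2 of 3 erythroid genes had a gene-end region, and 2 of 3 natural killer and 3 of 3 thymic epithelial genes had one in both DN3 lists, against 1 of 3 each in both naive lists. The B cell and myeloid genes behind these counts differed. Lyz2 was called in the DN3 lists only, Itgam in the naive lists only and Pax5 in control DN3 only. Cd79a had a −log10 q of 3.36 in KO DN3, 53.8 in KO naive and 54.5 in control naive cells and was not called in control DN3 cells. The −log10 q of the erythroid factor gene Klf1 was 365 in KO and 369 in control DN3 cells, against 359 in KO and 403 in control naive cells, while Ms4a1 (B cell), Csf1r (myeloid), Ncr1 (natural killer) and Hba-a1 (erythroid) were called in no list. The part of other cells in the results was not tested. Each library pools cells, so fewer cells with an open region and a smaller opening in each cell cannot be told apart.

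Glycolysis splits glucose into pyruvate, with a small yield of ATP, and supplies carbon for nucleotides, serine and lipids. Pyruvate is then reduced to lactate or oxidised by the pyruvate dehydrogenase complex, which the Pdk kinases switch off. Resting naive T cells use little glucose and induce the pathway on activation, while DN3 thymocytes stand at the stage where the T cell receptor beta chain is tested and cells that pass it proliferate and take up more glucose.

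At least 1 annotated start was covered by a region in all 4 lists in 29 of the 32 glycolysis genes with an annotated start, so promoters are shown first. Of their 51 annotated starts, 38 were covered in all 4 lists and 13 were not. The windows span 250 bases before to 50 bases after a RefSeq start (GRCm38.p6, the assembly of mm10), written 5′ to 3′ on the gene's strand. Shown are the 5 genes whose start region differed most in rank between DN3 and naive cells and Pfkl, whose start region ranked highest over the 4 lists. They are Pkm on the plus strand at chr9:59656326-59656625, Ldha on the plus strand at chr7:46845554-46845853, Pgk1 on the plus strand at chrX:106186850-106187149, Pdk2 on the minus strand at chr11:95041322-95041621, Gapdh on the minus strand at chr6:125165724-125166023 and Pfkl on the minus strand at chr10:78009758-78010057. Capitals mark ACGTG or its reverse complement CACGT, the core of the element bound by Hif1a with Arnt and, as CACGTG, of the E-box bound by Myc and USF proteins, and GGGCGG or CCGCCC, the GC box bound by Sp1-type factors.
Pkm: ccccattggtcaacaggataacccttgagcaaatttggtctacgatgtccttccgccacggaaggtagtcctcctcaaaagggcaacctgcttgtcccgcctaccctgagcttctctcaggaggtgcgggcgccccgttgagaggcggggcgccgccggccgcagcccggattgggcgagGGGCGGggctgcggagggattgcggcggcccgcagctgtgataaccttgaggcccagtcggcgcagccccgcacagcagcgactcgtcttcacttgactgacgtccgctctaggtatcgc
Ldha: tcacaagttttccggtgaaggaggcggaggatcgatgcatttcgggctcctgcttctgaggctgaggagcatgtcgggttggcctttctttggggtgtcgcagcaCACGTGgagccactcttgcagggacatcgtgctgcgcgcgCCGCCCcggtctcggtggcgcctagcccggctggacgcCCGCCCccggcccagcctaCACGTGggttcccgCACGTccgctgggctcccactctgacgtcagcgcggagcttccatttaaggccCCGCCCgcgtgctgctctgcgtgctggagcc
Pgk1: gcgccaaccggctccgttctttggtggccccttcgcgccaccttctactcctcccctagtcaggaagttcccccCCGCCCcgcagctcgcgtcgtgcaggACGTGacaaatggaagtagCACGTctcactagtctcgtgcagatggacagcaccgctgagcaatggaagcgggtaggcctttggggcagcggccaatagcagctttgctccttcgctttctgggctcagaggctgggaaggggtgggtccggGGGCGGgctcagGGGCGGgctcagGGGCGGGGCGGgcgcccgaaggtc
Pdk2: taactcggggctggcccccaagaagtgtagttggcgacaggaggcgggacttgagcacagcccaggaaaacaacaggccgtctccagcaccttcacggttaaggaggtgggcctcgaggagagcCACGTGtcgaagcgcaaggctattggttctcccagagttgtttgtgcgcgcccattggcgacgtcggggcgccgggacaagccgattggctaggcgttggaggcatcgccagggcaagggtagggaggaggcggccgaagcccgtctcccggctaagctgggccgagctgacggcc
Gapdh: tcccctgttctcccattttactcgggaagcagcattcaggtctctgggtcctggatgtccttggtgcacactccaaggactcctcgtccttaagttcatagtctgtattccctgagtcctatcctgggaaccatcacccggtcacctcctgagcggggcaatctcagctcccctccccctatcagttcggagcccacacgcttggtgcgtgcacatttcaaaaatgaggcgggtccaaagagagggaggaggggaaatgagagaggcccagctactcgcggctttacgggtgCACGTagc
Pfkl: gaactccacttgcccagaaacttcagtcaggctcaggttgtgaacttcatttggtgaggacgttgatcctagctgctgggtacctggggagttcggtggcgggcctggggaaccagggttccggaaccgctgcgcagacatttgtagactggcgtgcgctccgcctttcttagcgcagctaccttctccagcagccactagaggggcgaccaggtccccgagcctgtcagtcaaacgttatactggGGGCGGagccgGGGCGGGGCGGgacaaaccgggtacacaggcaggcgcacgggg
The called region covered the whole of each of these windows in all 4 lists. Among the printed windows, that of Ldha held 3 separate stretches of ACGTG or its reverse, Pgk1 held 2, Pdk2 and Gapdh held 1 each, and Pkm and Pfkl held none. The window of the second Pkm start, at position 59657227 and not printed, held 2, and that start was covered in all 4 lists. The GC box occurred in 4 stretches of the Pgk1 window, 3 of Ldha, 2 of Pfkl and 1 of Pkm, and in none of Pdk2 and Gapdh. Over all annotated starts, ACGTG was present on either strand in 23 of 51 windows of the glycolysis genes (45.1%), against 21.1% of 21045 windows of all protein-coding genes. Counted by gene, 19 of 32 glycolysis genes had it in at least 1 window (59.4%), against 23.5% of 17274 genes. The palindrome CACGTG, every copy of which also contains ACGTG, was in 13.7% of the glycolysis windows and in 7.91% of all windows. GGGCGG was about as frequent in the glycolysis windows (47.1%) as in all windows (46.7%), and so was CCAAT, bound by NF-Y, at 39.2% and 38.5%. Counted by gene, GGGCGG was in 65.6% of the glycolysis genes and 49.8% of all genes, and CCAAT in 50% and 42.7%. The glycolysis genes had more windows per gene (51 for 32 genes, against 21045 for 17274), which raises every share counted by gene, that of ACGTG included. The ETS-type word CCGGAAG was in 3.92% of the glycolysis windows and 11.7% of all windows. TGTGGTT, a RUNX-type word, stood in 1.96% and 4.74%, and CTTTGAT, a TCF-type word, in none of the 51 and 3.25% of all. The median GC content was 60.3% in the glycolysis windows and 56.7% in all windows. These matches describe the letters in the windows, and whether a factor was bound there was not measured.

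Open chromatin at the ends of the glycolysis genes was nearly the same set of genes in both cell types and both genotypes. Regions no more than 1 kb away from the annotated start or end of a gene body are called gene-end regions below. Such a region was present in all 4 lists for 25 of the 33 genes (75.8%), against 56.1% of all protein-coding genes. It was present in no list for 5 genes, Hk1, Pfkfb2, Pfkfb4, Ldha and Hif1a, where 31.8% of all genes had none. Per list, 27 of 33 were called in KO DN3 and 27 in control DN3 cells (81.8% each, against 66.5% and 66.7% of all genes), and 26 in KO and 26 in control naive cells (78.8% each, against 58.6% and 57.0% of all genes). The 5 genes without a gene-end region were all open in every list at an annotated start that lies further inside the gene. Measured at RefSeq start sites, which were at hand for 32 of the genes (Slc2a3 has none in the table), 29 had a region within 1 kb in all 4 lists (90.6%, against 57.1% of 17274 genes with a start), and only Eno3 had none in any list (32.6% of all genes). No gene had a start region in both DN3 lists alone or in both naive lists alone (0 of 32 each, against 6.67% and 0.197% of all genes). Gene ends and starts can lie beside a neighbouring gene. The strongest gene-end regions of Pfkm, Pfkfb1, Aldoc, Tpi1 and Eno3 also lay within 1 kb of an end of Senp1, Apex2, Pigs, Usp5 and Pfn1. For Eno2 the strongest was the start region, beside Lrrc23, in both naive lists, and a region at the other gene end in both DN3 lists.

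**Figure D1:**
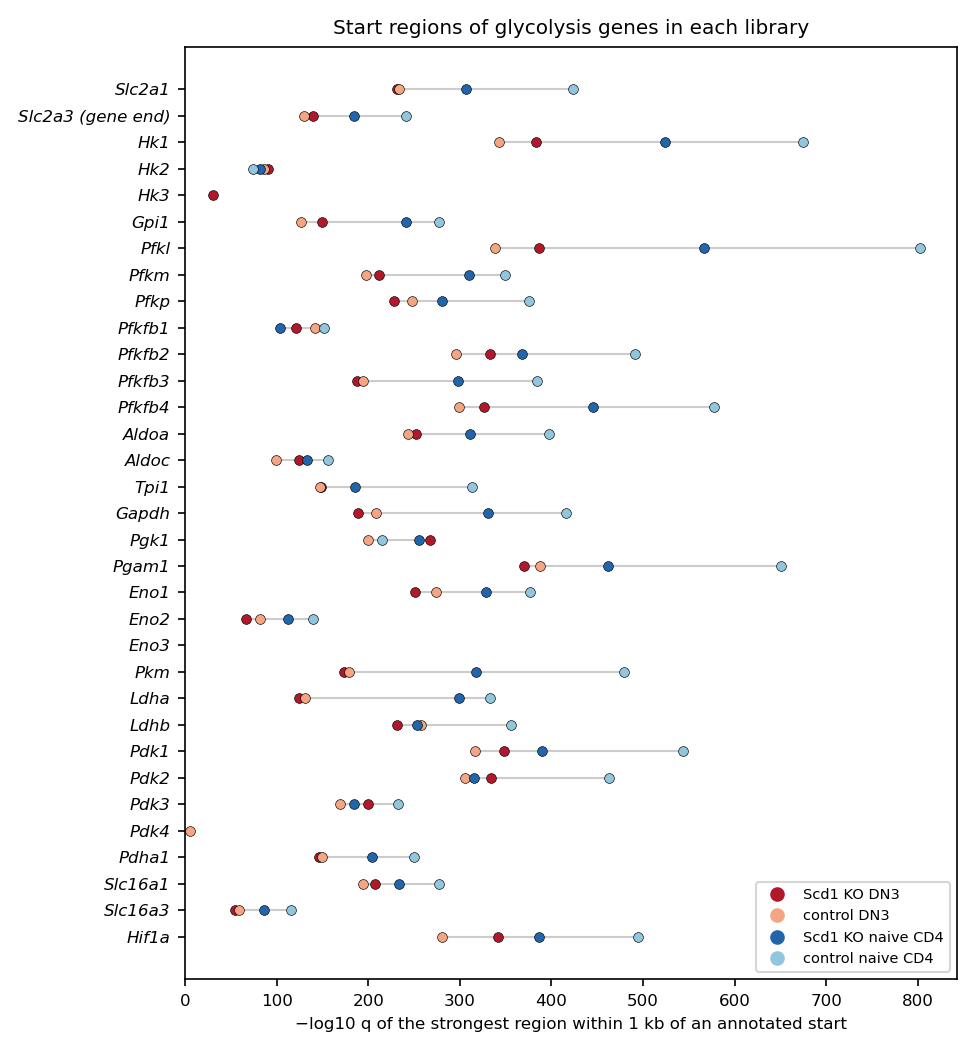
Each row is a glycolysis gene and each point a library, placed at the −log10 q (no unit) of the strongest region within 1 kb of an annotated start, or of a gene end for Slc2a3. Genes run from transport to regulation down the page; Eno3 has no point and Hk3 and Pdk4 have 1 each. Most genes lie further right in naive libraries, as the median of all genes does (293 in KO and 350 in control naive cells, against 221 in KO and 224 in control DN3 cells), while Hk2 lies further right in DN3 libraries.

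The strength of a region is given below as the authors' −log10 q, the significance of its summit within its own library, and as the fold, the pileup at the summit over the local background of the same library. Both belong to 1 library and −log10 q grows with depth, so levels are read against the median over genes with a start region in all 4 lists, which was 221 in KO DN3, 224 in control DN3, 293 in KO naive and 350 in control naive cells. In 23 of 29 glycolysis genes both DN3 values lay below both naive values, as in 75.7% of all genes with such a region, and by fold in 13 of 29, against 39.7% of all genes. For comparison between lists each gene was therefore ranked as a percentile among those same genes.

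Glucose enters T cells through the facilitative transporters Slc2a1 (Glut1) and Slc2a3 (Glut3). The start region of Slc2a1 had a −log10 q of 232 in KO DN3 and 234 in control DN3 cells, against 307 in KO and 424 in control naive cells, each close to the median of its list or above it. At the gene end of Slc2a3 the values were 140 in KO DN3 and 130 in control DN3 cells, against 184 in KO and 241 in control naive cells. This gene end of Slc2a3 thus lay in the lower part of every list, at percentiles of 31.3, 27.3, 32.4 and 36.1 in KO DN3, control DN3, KO naive and control naive cells. No strand or start was at hand for Slc2a3, whose annotated span is 74555 bp. Whether this end or a region inside the span lies at a start of the gene therefore cannot be told here. Inside the span a broad region at chr6:122740013-122743558 was weaker in DN3 cells. Its −log10 q was 51.2 in KO and 63.0 in control DN3 cells, against 151 in KO and 202 in control naive cells. A body region of Slc2a1 at chr4:119115883-119116907 showed the same order, with 13.4 in KO and 17.1 in control DN3 cells, against 62.6 in KO and 44.4 in control naive cells.

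Hexokinases trap glucose in the cell as glucose 6-phosphate. Hk1, the widely expressed form, had no region at its most upstream annotated start, and its open start lay inside the gene at position 62340421 of chromosome 10. There the −log10 q was 383 in KO DN3 and 343 in control DN3 cells, against 524 in KO and 674 in control naive cells, at percentiles of 92.8, 86.3, 97.3 and 96.7 among start regions in KO DN3, control DN3, KO naive and control naive cells. Hk2, the inducible form of growing cells, was weak everywhere, with 90.6 in KO DN3, 86.3 in control DN3, 81.9 in KO naive and 74.7 in control naive cells, although its start region was 2594, 2683, 2660 and 2629 bp wide in the 4 lists. By −log10 q, Hk2 was the only 1 of the 29 genes ranked at starts with both DN3 values above both naive values (3.45%, against 12.7% of all genes). By fold this held for 6 of 29 (20.7%, against 20.9% of all genes), and Hk2 was not among them. Its fold was 6.10 in KO and 5.93 in control DN3 cells, against 6.90 in KO and 5.91 in control naive cells. Hk3, mainly a gene of myeloid cells, had a weak region about 1 kb upstream of its start with 30.7 in KO DN3 and 51.2 in control DN3 cells, against 21.8 in KO and 17.6 in control naive cells. Because the edges of that region differed slightly between lists, it fell within 1 kb of the gene end only in DN3 cells, which made Hk3 the only gene of the 33 with a gene-end call in both DN3 lists and neither naive list (3.03%, against 7.57% of all genes). No glycolysis gene had the reverse pattern, found in 0.347% of all genes.

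The next steps turn glucose 6-phosphate into fructose 6-phosphate (Gpi1) and commit it to glycolysis (phosphofructokinase, with the subunits Pfkl, Pfkm and Pfkp). Gpi1 had a start region with −log10 q of 149 in KO DN3 and 127 in control DN3 cells, against 241 in KO and 277 in control naive cells. Pfkl, the liver-type subunit, had the highest mean start rank of the set, with 387 in KO DN3 and 338 in control DN3 cells, against 567 in KO and 803 in control naive cells, a percentile of 93.4 and 85.0 in KO and control DN3 cells and of 99.0 and 99.6 in KO and control naive cells. Pfkp, the platelet-type subunit, was near the median at 228 in KO DN3 and 247 in control DN3 cells, against 280 in KO and 376 in control naive cells. Pfkm, the muscle-type subunit, was open both at its most upstream start, shared with Senp1, and at internal starts near position 98108471 of chromosome 15. At the internal starts the −log10 q was 212 in KO DN3 and 198 in control DN3 cells, against 184 in KO and 229 in control naive cells, with a fold of 16.1, 15.6, 16.8 and 16.1 in the same libraries, the flattest profile of the 3 subunits across cell types.

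The Pfkfb enzymes make and remove fructose 2,6-bisphosphate, the allosteric activator of phosphofructokinase. Pfkfb2 had a strong start region, with a −log10 q of 333 in KO DN3 and 296 in control DN3 cells, against 368 in KO and 491 in control naive cells. Pfkfb4, which is induced by low oxygen, was stronger still in naive cells, with 326 in KO DN3 and 299 in control DN3 cells, against 445 in KO and 577 in control naive cells. Pfkfb3, the form that most favours making the activator, was lower in DN3 cells at its upstream start, with 162 in KO and 194 in control DN3 cells, against 298 in KO and 384 in control naive cells. Its internal start at position 11502090 of chromosome 2 was open as well, at 188 in KO and 167 in control DN3 cells, against 213 in KO and 251 in control naive cells. Pfkfb1, the liver and muscle form on the X chromosome, shared its region with the neighbour Apex2, at 122 in KO DN3 and 142 in control DN3 cells, against 104 in KO and 151 in control naive cells.

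From aldolase to enolase the pathway cleaves the sugar and yields ATP and NADH. Aldoa, the main aldolase of most cells, had start regions at −log10 q of 252 in KO DN3 and 243 in control DN3 cells, against 311 in KO and 397 in control naive cells. Tpi1, the triose phosphate isomerase, stood at 149 in KO DN3 and 148 in control DN3 cells, against 186 in KO and 314 in control naive cells, values below the median of each list. Gapdh, the glyceraldehyde phosphate dehydrogenase, was at 189 in KO DN3 and 209 in control DN3 cells, against 330 in KO and 416 in control naive cells. Pgk1, the first ATP-yielding enzyme, followed another order, with 267 in KO DN3 and 200 in control DN3 cells, against 255 in KO and 215 in control naive cells, and was thus higher in the KO library of each cell type. Pgam1, the phosphoglycerate mutase, was among the strongest genes of the set with 370 in KO DN3 and 388 in control DN3 cells, against 462 in KO and 650 in control naive cells. Of the enolases, Eno1, the general form, had 251 in KO DN3 and 273 in control DN3 cells, against 329 in KO and 377 in control naive cells. The neuronal form Eno2 was weak, at 66.0 and 81.7 in KO and control DN3 cells and 112 and 140 in KO and control naive cells, and the muscle form Eno3 had no start region, its gene-end region lying beside Pfn1. Aldoc, the brain form of aldolase, had a weak start region of 124 in KO DN3, 99.3 in control DN3, 133 in KO naive and 157 in control naive cells, while its strongest gene-end region, at 334, 296, 379 and 473 in those libraries, lay at the other end beside Pigs.

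Pyruvate kinase (Pkm) makes pyruvate, and lactate dehydrogenase, with subunits Ldha and Ldhb, exchanges it with lactate. Pkm had a start region with −log10 q of 173 in KO DN3 and 179 in control DN3 cells, against 318 in KO and 479 in control naive cells, and a fold of 6.79 and 6.65 in KO and control DN3 cells, against 7.94 and 8.19 in KO and control naive cells. Ldha had 124 in KO DN3 and 131 in control DN3 cells, against 299 in KO and 333 in control naive cells, with a fold of 6.85 and 6.95 in KO and control DN3 cells, against 10.1 and 8.85 in KO and control naive cells. For both genes each DN3 value was lower than each naive value by either measure. Ldhb, which favours the oxidation of lactate, differed less, with 231 in KO DN3 and 257 in control DN3 cells, against 253 in KO and 356 in control naive cells.

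Pyruvate dehydrogenase kinases block the entry of pyruvate into the citric acid cycle, and Pdha1 encodes the subunit they phosphorylate. Pdk1, a target of Hif1a, had start regions at −log10 q of 348 in KO DN3 and 317 in control DN3 cells, against 389 in KO and 543 in control naive cells. Pdk2 had 334 in KO DN3 and 305 in control DN3 cells, against 316 in KO and 463 in control naive cells, so that the KO naive value lay between the DN3 values. Pdk3 had 200 in KO DN3 and 169 in control DN3 cells, against 185 in KO and 232 in control naive cells. Pdk4, a fasting-induced gene of muscle and liver, was called at its start in the control DN3 list only, where its region was narrow (293 bp) and weak, reaching a −log10 q of 5.65, its fold being 3.67. Pdha1 lay in the lower part of each list, at 147 in KO DN3 and 150 in control DN3 cells, against 204 in KO and 250 in control naive cells.

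The proton-coupled carriers Slc16a1 (MCT1) and Slc16a3 (MCT4) move lactate across the plasma membrane, the second mainly outwards in glycolytic cells. The start region of Slc16a1 had a −log10 q of 207 in KO DN3 and 194 in control DN3 cells, against 234 in KO and 277 in control naive cells. Slc16a3 had a weak one of 55.1 in KO DN3 and 58.4 in control DN3 cells, against 85.8 in KO and 116 in control naive cells, at start percentiles of 8.68, 8.80, 16.2 and 18.8 in those libraries. Hif1a, the oxygen-regulated factor that activates many genes of this set, had 341 in KO DN3 and 280 in control DN3 cells, against 387 in KO and 494 in control naive cells, with a fold of 12.4 and 10.9 in KO and control DN3 cells, against 10.1 and 9.57 in KO and control naive cells.

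Ranked within their lists by −log10 q and averaged over both genotypes, Pkm and Ldha were lower in DN3 than in naive cells. No glycolysis gene was higher by as much on this measure, but the order differed between genotypes and by fold. The gene-end percentile of Pkm averaged 39.9 in the DN3 lists and 65.5 in the naive lists, a difference of −25.6 points, and it was the only 1 of the 25 genes ranked at gene ends to fall by 20 points or more, a size reached by 3.63% of 12131 genes in that direction. A fall of this size in 1 of 25 genes is close to the share of all genes. None rose by 20 points or more, which 4.31% of all genes did. At start sites, where 29 genes could be ranked, Pkm differed by −26.1 points and Ldha by −24.1, with mean percentiles of 25.2 in DN3 and 49.3 in naive cells for Ldha. These 2 of 29 genes are set against 4.04% of all genes that fell as far at starts, and the 0 that rose against 4.41%. With so few genes, counts of 1 or 2 do not set the pathway apart from all genes. Smaller falls at gene ends were seen for Gapdh (−15.6 points), Pfkfb3 (−14.5), Gpi1 (−11.5) and Pfkm (−9.82). Higher in DN3 cells were Pgk1 (16.8 points), Pdk2 (15.9), Ldhb (9.68), Pdk3 (8.31) and Aldoc (5.86), the last at the end beside Pigs. Ranked by the fold instead, Pkm differed by only −7.21 points and Ldha at its start by −16.3, Ldhb and Aldoc turned negative at −9.14 and −3.35, and Pgk1 rose by 21.6. Other gene-end differences by fold, named after their values were seen, were Tpi1 at −18.0, Eno2 at −17.4 and Pfkl at −14.6 points, and Pfkfb1 at 13.1 and Eno1 at 13.0. The Eno2 value compares regions at different gene ends, and at its start alone Eno2 differed by −17.7 points. By fold at starts, Hif1a was 22.4 and Pgk1 21.5 points higher in DN3 cells. Pfkm was 53.2 points higher there, but its strongest start region lay at the internal starts in DN3 and at the upstream start in naive cells.

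The size of these differences was not the same between the KO libraries as between the control libraries, each pair being 1 library per cell type. At gene ends the Pkm difference was −17.6 points between the KO libraries and −33.6 between the control libraries. Pdk2 differed by 26.3 points between the KO libraries and by 5.47 between the control libraries, Pgk1 by 20.8 and 12.8, Pdk3 by 14.1 and 2.56 and Aldoc by 10.8 and 0.915 in the same order. The KO libraries alone thus gave 2 genes at least 20 points higher in DN3 cells and 0 lower (against 5.24% and 4.68% of all genes), and the control libraries alone 0 higher and 1 lower (against 5.92% and 5.71%). At start sites Ldha was at least 20 points lower in DN3 cells between the KO libraries and between the control libraries.

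**Figure D2:**
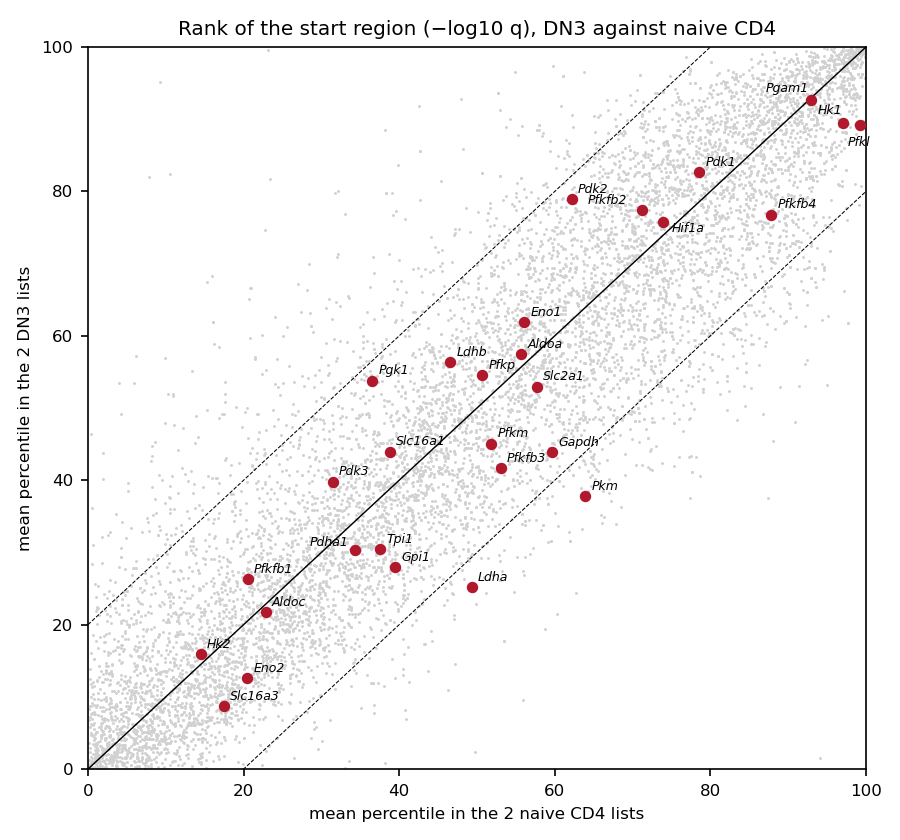
Each point is a gene with a start region in all 4 lists, placed by its mean percentile of −log10 q in the naive CD4 lists (horizontal) and in the DN3 lists (vertical); red points are the 29 glycolysis genes and grey points all ranked genes. The solid line marks equal rank and the dashed lines a difference of 20 points; Pkm and Ldha lie below the lower line and no glycolysis gene lies above the upper one.

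Taken over the set, the ranks moved little. The median difference of the 25 genes at gene ends was −1.18 points in DN3 against naive cells, with 11 genes higher and 14 lower, and that of all ranked genes was −0.289. Between the KO libraries the median was 0.907 points and between the control libraries −4.17, so the sign of the small set-wide difference depended on genotype. The genes of the set were of middling strength by −log10 q, with a median percentile of 46.6 in KO DN3, 43.9 in control DN3, 44.5 in KO naive and 52.1 in control naive cells. By fold they were lower, at median percentiles of 34.0, 30.2, 35.2 and 33.8 in the same libraries, where the median of all genes is 50 by construction.

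Over gene ends, bodies and flanks together, a larger share of the regions around glycolysis genes was called in every list, and a smaller share in DN3 cells only, than around all genes. Of the 160 joined regions, 98 were called in all 4 lists (61.3%, 95% Wilson interval 53.5% to 68.5%, against 44.2% of the 68326 joined regions around all protein-coding genes). Both DN3 lists and neither naive list called 25 (15.6%, interval 10.8% to 22.05%, against 26.6%), and both naive lists and neither DN3 list called 5 (3.13%, interval 1.34% to 7.11%, against 4.77%). The intervals cover counting error only and treat regions as independent, which neighbours are not. At gene ends 32 of 34 joined regions were in all 4 lists (94.1%, against 73.1%), with no region of 1 cell type only (against 15.1% for DN3 and 1.15% for naive cells). In gene bodies 34 of 75 were in all 4 lists (45.3%, interval 34.6% to 56.6%, against 34.2%), 16 in DN3 cells only (21.3%, interval 13.6% to 31.9%, against 30.8%) and 3 in naive cells only (4%, against 6.27%). In the flanks 32 of 51 were in all 4 lists (62.7%, interval 49.0% to 74.7%, against 39.2%), 9 in DN3 cells only (17.6%, interval 9.57% to 30.3%, against 27.3%) and 2 in naive cells only (3.92%, against 4.34%). In bodies and in flanks the interval of the DN3-only share thus held the share around all genes. The DN3 lists are longer and hold more weak regions, and with every list shortened to the length of the shortest by strength the DN3-only count was 8 of 127 (6.30%, against 14.9% around all genes) and the naive-only count 12 of 127 (9.45%, against 13.8%).

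**Figure D3:**
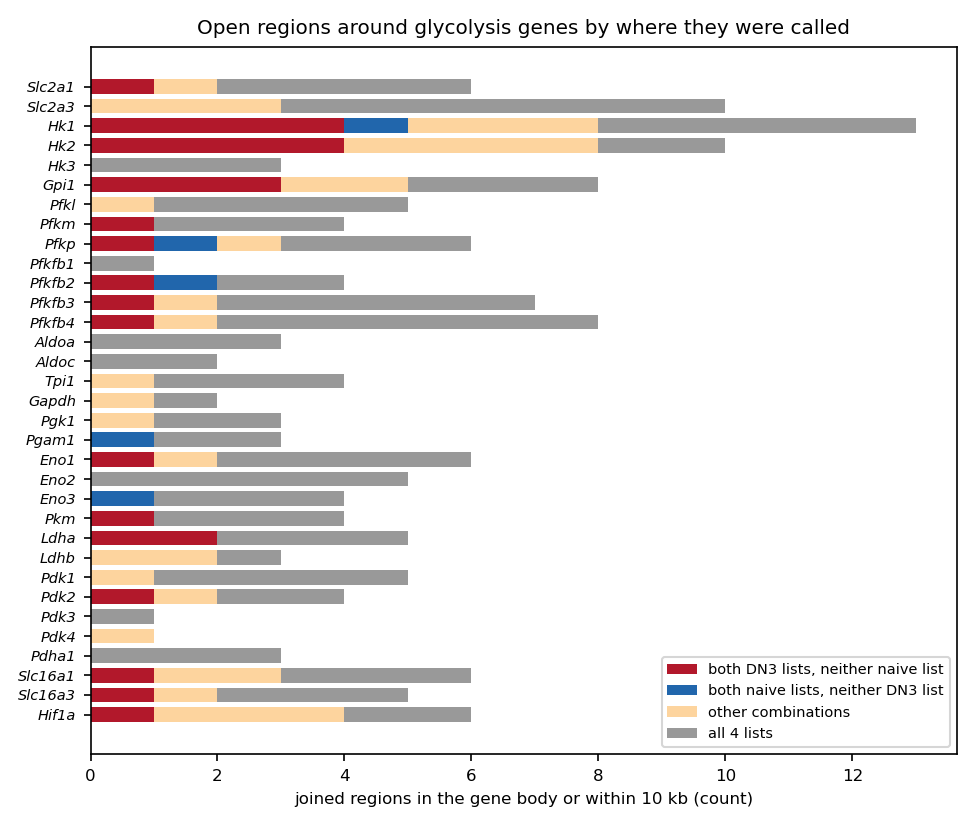
Bars give the number of joined regions in the body or within 10 kb of each glycolysis gene, split by the lists that called them; genes run from transport to regulation down the page. Hk1 and Hk2 carry 4 DN3-only regions each and Gpi1 carries 3, while most other genes carry 1 or none.

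DN3-only regions were most numerous at Hk1 and Hk2, with 4 each, followed by Gpi1 with 3 and Ldha with 2, and 12 further genes had 1. Hk1 is also long, at 111066 bp, against 49430 bp for Hk2 and 29010 bp for Gpi1. The strongest lay inside Gpi1 at chr7:34214342-34215287, reaching a −log10 q of 132 in KO and 141 in control DN3 cells at a fold of 14.3 and 14.4, as strong as the Gpi1 start region in the same lists and uncalled in both naive lists. The next lay inside Hk1 at chr10:62306335-62307102, with 83.1 in KO and 93.8 in control DN3 cells. A region in the flank of Slc2a1 at chr4:119142319-119142669 had 51.6 in both DN3 lists, and 1 inside Eno1 at chr4:150242631-150243105 had 44.0 in KO and 64.2 in control DN3 cells. The 4 of Hk2 were weaker, with the strongest at chr6:82753084-82754009 reaching 23.8 in KO and 23.6 in control DN3 cells. Both DN3-only regions of Ldha lay in its downstream flank and were faint, at most 8.83 in KO and 11.4 in control DN3 cells. The 5 naive-only regions belonged to Hk1, Pfkp, Pfkfb2, Pgam1 and Eno3. The strongest was inside Pfkp at chr13:6626510-6627931, with 26.5 in KO and 35.4 in control naive cells, and it lay near a DN3-only region of the same gene at chr13:6624058-6624848 with 31.1 in KO and 40.99 in control DN3 cells. Hk1 also had both kinds, its naive-only region at chr10:62277608-62278267 being faint, with 10.8 in KO and 3.84 in control naive cells.

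**Figure D4:**
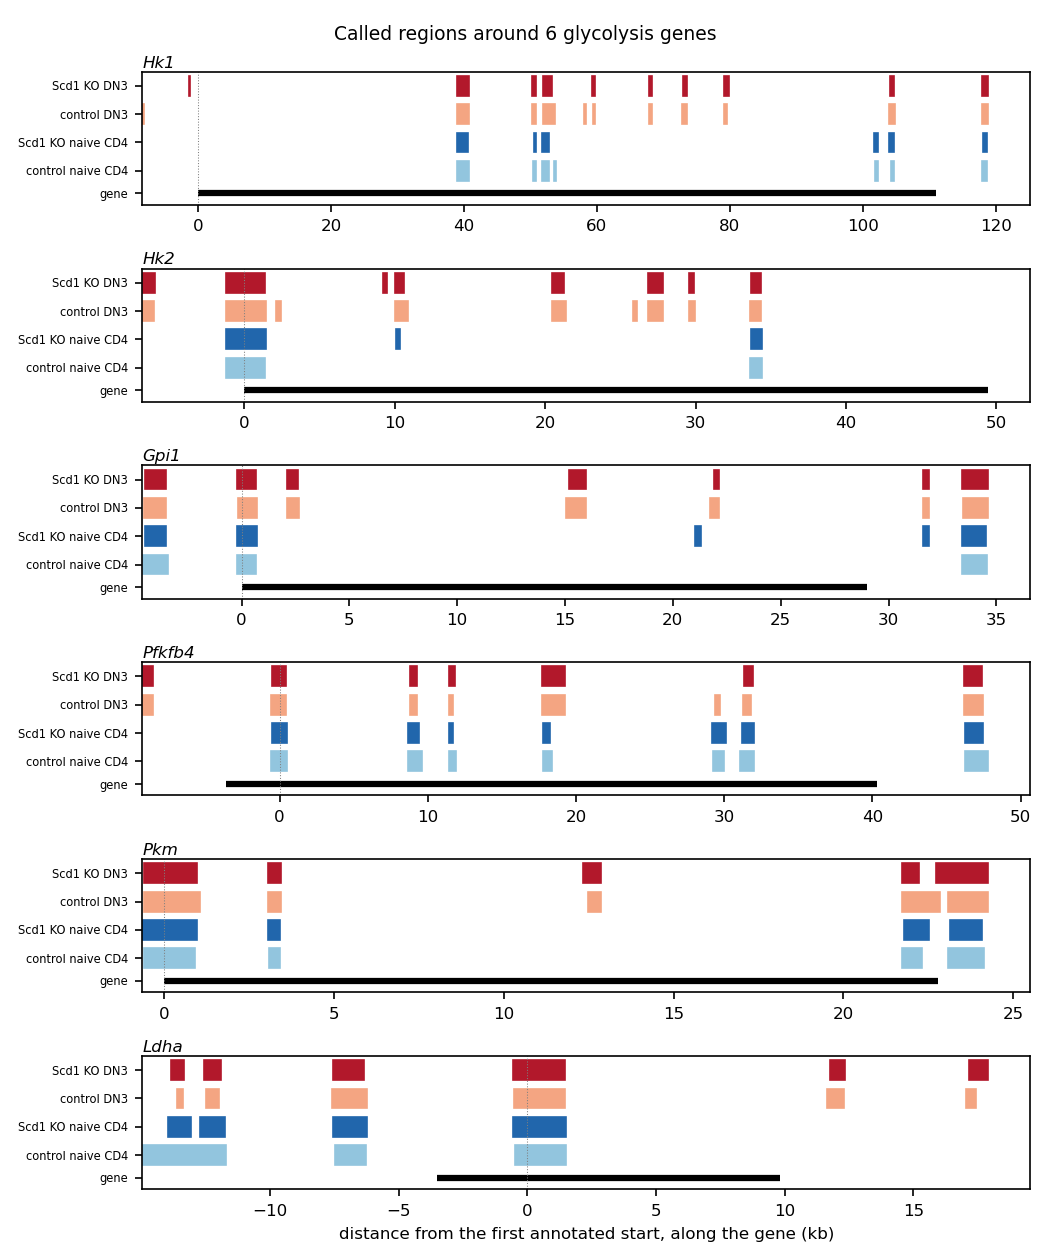
Coloured boxes are the regions called in each library around 6 glycolysis genes, and the black bar is the annotated gene; the horizontal axis is the distance in kb from the first annotated start along the gene, with the start at 0. The Gpi1 region 15.5 kb inside the gene and the Hk2 region 20.9 kb inside it appear in the DN3 rows only, the Pfkfb4 region 18.5 kb inside is wider in DN3 cells, and Hk1 has no region at its first start.

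Regions shared by all 4 lists were also ranked, by the percentile of their −log10 q among the joined regions called in all 4 lists. Of the 98 around glycolysis genes, 5 ranked at least 20 points higher in DN3 than in naive cells (5.10%, against 11.2% of such regions around all genes) and 14 ranked at least 20 points lower (14.3%, against 10.6%). The largest rise was a flank region of Pgam1 at chr19:41900563-41902147, with −log10 q of 172 in KO and 196 in control DN3 cells, against 27.3 in KO and 29.8 in control naive cells, a difference of 53.5 points. A body region of Pfkfb4 at chr9:109009596-109011141 had 127 in KO and 144 in control DN3 cells, against 21.6 in KO and 24.2 in control naive cells, a difference of 49.7 points. Pkm had 1 such region as well, 3.24 kb inside the gene at chr9:59659615-59660015, with 101 in KO and 107 in control DN3 cells, against 33.1 in KO and 27.7 in control naive cells, a difference of 35.0 points. Within Pkm the start region thus ranked lower in DN3 cells and this inner region higher. The other 2 belonged to Hk1. Of the 14 lower in DN3 cells, the largest difference was in the body of Eno1 at chr4:150239607-150240370, with 38.2 in KO and 26.2 in control DN3 cells, against 99.4 in KO and 110 in control naive cells (−35.9 points). A flank region of Pdk1 followed at −34.1 points, then 1 of Eno2 at −33.0, the Slc2a1 body region described above at −32.6 and the Slc2a3 body region at −30.1. In gene bodies alone 8 of 34 shared regions were lower by 20 points or more (23.5%, against 15.3%) and 3 were higher (8.82%, against 14%).

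Between genotypes nearly the same gene ends were called. At gene ends in DN3 cells, 1 gene (3.03%) was called in the KO list only, Aldoa (against 0.911% of all genes), and 1 in the control list only, Pdk4 (against 1.11%). Aldoa was open at its starts in both lists, and its control DN3 region ended just beyond the 1 kb limit from the annotated gene end. In naive cells no gene differed in either direction (against 1.93% of all genes for KO only and 0.37% for control only). At start sites the KO DN3 list alone called Hk3 (1 of 32, against 0.59%), through the edge described above, and the control DN3 list alone called Pdk4 (1 of 32, against 0.886%), while in naive cells none of the 32 differed (against 1.77% and 0.266%). Of the 160 joined regions, 5 were in the KO list only in DN3 cells (3.13%, against 7.47%) and 10 in the control list only (6.25%, against 8.2%). In naive cells 12 were in the KO list only (7.50%, against 6.91%) and 5 in the control list only (3.13%, against 2.96%). The strongest of the 5 KO-only regions in DN3 cells was inside Pgk1 with a −log10 q of 10.3, and the strongest of the 10 control-only regions was 1 of Hk1 with 7.67. In naive cells the strongest KO-only region was in the flank of Gpi1 with 19.1, followed by 1 of Ldhb with 17.5, and the strongest control-only regions were at the downstream end of Slc16a1 with 17.8 and in the flank of Slc2a1 with 17.0.

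None of the 98 shared regions differed in rank by 20 points or more between genotypes, in DN3 cells (against 0.103% up and 0.103% down around all genes) or in naive cells (against 0.487% up and 0.344% down).

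Gene-end ranks differed by less than 20 points between genotypes in all 25 genes. In DN3 cells the KO minus control difference at gene ends had a median of 1.85 points over the 25 genes, with 17 higher and 8 lower in KO. For all ranked genes the median was −0.00824, with 6054 higher and 6068 lower. Of the 25 genes, 0 passed 20 points in either direction (against 0.256% up and 0.19% down). Pgk1 came nearest at 19.8 points, with a percentile of 65.4 in KO DN3 and 45.6 in control DN3 cells. At start sites its difference was 20.2 points, making it the only 1 of 29 genes past 20 (against 0.233% of all genes up and 0.304% down). In naive cells the median was −2.57 points, with 5 genes higher and 20 lower in KO. For all ranked genes it was 0.128, with 6195 higher and 5927 lower. Again none of the 25 genes reached 20 points (against 0.973% up and 1.56% down). At start sites none of the 29 reached 20 points in naive cells (against 1.21% up and 1.86% down). Pgk1 was the highest in naive cells too, at 11.8 points at gene ends, with a percentile of 44.5 in KO and 32.7 in control naive cells. The lowest were Pkm at −16.4, Tpi1 at −14.2 and Pdk2 at −14.1 points. By fold the set was more even, with 13 higher and 12 lower in DN3 cells and 10 higher and 15 lower in naive cells. The split of all ranked genes by fold was 6285 higher and 5828 lower in DN3 cells and 5477 higher and 6642 lower in naive cells. Pgk1 remained higher in KO by fold, with 13.2 in KO and 11.7 in control DN3 cells, and 12.2 in KO and 9.44 in control naive cells. Hif1a, which has no gene-end region, was 17.6 points higher at its start in KO than in control DN3 cells and differed by −1.45 points in naive cells. Pgk1, Pdk3, Pdha1 and Pfkfb1 are X-linked, and the sex of the animals was not used here.

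**Figure D5:**
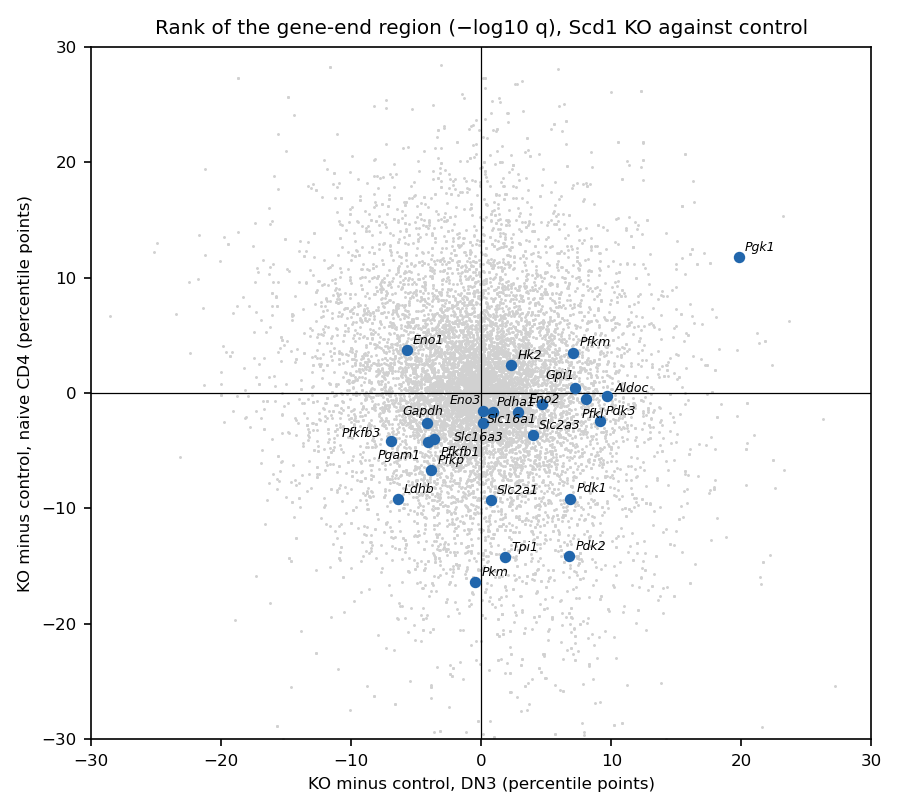
Each point is a gene with a gene-end region in all 4 lists, placed by its KO minus control difference in percentile of −log10 q in DN3 (horizontal) and naive CD4 cells (vertical); blue points are the 25 glycolysis genes and grey points all ranked genes, 43 of which lie outside the axes. Pgk1 stands apart at 19.8 and 11.8 points, and 20 of the 25 lie below 0 on the vertical axis, against 5927 of the 12131 ranked genes.

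A list of 52 further genes of glucose metabolism, among them other sugar transporters, pyruvate dehydrogenase subunits, enzymes of the pentose phosphate and glycogen routes and the hydroxylases and partners of Hif1a, was also mostly called. In this list 43 genes were called at a gene end in all 4 libraries (82.7%, against 56.1% of all genes) and 5 in none (9.62%, against 31.8%). Of those 5, Eno4 was open at its start in every list, at a −log10 q of 304 in KO DN3, 298 in control DN3, 333 in KO naive and 410 in control naive cells. Ldhc, the testis form of lactate dehydrogenase, was called in both DN3 lists and neither naive list, and no gene of this list had the reverse pattern. At gene ends in naive cells the KO list alone called Pklr and Mlxipl, both weakly (3.85% of this list, against 1.93% of all genes). Mlxipl had a start region in every list, at a −log10 q of 119 in KO DN3, 134 in control DN3, 42.3 in KO naive and 34.8 in control naive cells. At starts the KO naive list alone called 0 of these further genes (against 1.77% of all genes). Among the 43 ranked genes, Txnip, an arrestin that brings glucose transporters into the cell, was 22.8 points higher in DN3 cells. Slc2a8, an intracellular hexose transporter, was 32.9 points lower, and Gpd2, the mitochondrial glycerol phosphate dehydrogenase, 23.2 points lower. The 43 genes ranked higher than the glycolysis genes at the median, with median gene-end percentiles of 69.4 in KO DN3, 68.2 in control DN3, 66.2 in KO naive and 68.4 in control naive cells. In naive cells 20 of them ranked higher and 23 lower in KO than in control, against the 5 and 20 of the glycolysis genes. Slc2a8 had a −log10 q of 84.1 in KO and 80.1 in control DN3 cells, against 287 in KO and 322 in control naive cells.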

How the data were processed

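ATAC-seq was measured in 4 libraries, 1 per genotype and cell type, and samples were grouped by their labels for cell type and genotype. Per the submitters' processing notes, Trimmomatic, BWA and MACS2 were used with the build mm10, with no versions. The sources used here do not give MACS2 settings, handling of duplicate reads or any shift for Tn5 insertion. The authors deposited 1 narrow peak list per library. Each deposited peak has a fold (a ratio of summit pileup over background near the peak), a −log10 p and a −log10 q of the summit, a score equal to 10 times the −log10 q, rounded down, in at least 99.99% of peaks, and a summit offset, which was not used. The weakest deposited −log10 q was 1.31 to 1.32 in each list. These are the authors' values, used only to describe and rank within a list. Read depth is unknown, and the −log10 q grows with it.

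Regions on chromosomes 1 to 19 and X were kept and those of the 4 lists joined where they overlapped by at least 1 bp. Gene positions and starts came from RefSeq tables of GRCm38.p6, the assembly of mm10; exons and introns were not annotated. All 33 symbols and all 52 of the wider list matched. Some genes of the marker and wider lists are counted but not reported here by name. A gene-end region lay within 1 kb of either annotated gene end and a start region within 1 kb of any annotated start. The strongest region by −log10 q was ranked as a percentile within its list over genes called in all 4 lists, and differences of 20 points or more were counted. Its fold was ranked as an alternative. Percentages of all protein-coding genes or regions stand beside each count. The main shares of regions have 95% Wilson intervals. There are no replicates, so differences were not tested. Motif letters were searched on both strands of the 300-base promoter windows. Overlap and rank steps were tested on simulated data. Python 3.11.15, pandas 2.3.3, numpy 2.4.6, scipy 1.17.1 and matplotlib 3.10.9 were used.

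The members, the wider gene list, the markers and the rules were chosen with earlier results of these data known. Values are named for Slc2a1, Slc2a3, Hk1, Hk2, Pkm, Ldha and Hif1a, for genes whose gene-end call differs between lists or is missing in all, for the 5 highest and 5 lowest rank differences between cell types and the 3 highest and 3 lowest between genotypes, and for the genes with the most regions of 1 cell type only. Other members are given for completeness by role, and the joined regions described were chosen after their values were seen. Alternatives were other windows and flanks, stricter thresholds, lists of equal length, ranks by fold or over all genes, and each genotype alone.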

Additional observations from a re-analysis of the deposited data

Results flagged for a closer look

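Pdk2 differed in opposite directions between genotypes in the 2 cell types. Its gene-end region, which lies at its start, ranked 6.76 points higher in KO than in control DN3 cells and 14.1 points lower in KO than in control naive cells, a difference between the cell types of 20.9 points. Ranked by fold, the gene stood 6.95 points higher in KO than in control DN3 cells and 5.02 points lower in KO than in control naive cells, a difference of 12.0 points, which is under the 20 points used here. The −log10 q was 334 in KO and 305 in control DN3 cells, and 316 in KO and 463 in control naive cells. Opposite signs with a difference of at least 20 points were found in 6.05% of 12131 ranked genes, and the difference was not tested, since each group is 1 library.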

How the results depend on the processing

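No paired analysis was possible because each group has 1 library and no result comes from a test. Of the 122 comparisons of a set-wide count or median with an alternative setting, 87 stayed within the limits set (a count within 1.5 times, or a median within the spread between genotypes) and 35 did not. The median rank difference between cell types changed sign, from −1.18 points to 0.907 between KO libraries. That change counts as within the limits, because the limit for a median is the spread between genotypes. Among the 10 genes with the largest rank differences between cell types, 14 of 60 values moved. Genes with a gene-end region in DN3 cells only (1) became 0 with a 500 bp window or at starts only and 2 between the control libraries alone, where 1 gene was called in naive cells only (0 over all 4 lists). The gene called in KO DN3 only was lost with the 500 bp window, giving 0, and the gene called in control DN3 only at a −log10 q threshold of 10 or with lists of equal length, giving 0. Joined regions in DN3 cells only (25) became 16 in gene bodies alone, 69 with 50 kb flanks, 8 with lists of equal length and 41 between control libraries. Those in naive cells only (5) became 3, 14, 12 and 9 under the same 4 settings, and 11 between KO libraries. Joined regions in KO DN3 only (5) became 28 with 50 kb flanks and 2 at a −log10 q threshold of 10, and those in control DN3 only (10) became 24 and 3, and 5 with lists of equal length. Joined regions in KO naive only (12) became 7 in gene bodies, 32 with 50 kb flanks, 7 at a −log10 q threshold of 5, 5 at a threshold of 10, and 6 with lists of equal length, and those in control naive only (5) became 8 with 50 kb flanks. Genes ranked at least 20 points higher in DN3 cells (0) became 1 by fold, 1 when ranked over all genes (Hk3, through its missing calls) and 2 between KO libraries. Genes ranked at least 20 points lower (1, Pkm) became 2 at starts, 0 by fold and 0 between KO libraries, and over all genes Pkm stood at −14.5 points with Aldoa in its place. In DN3 cells 1 gene (Pgk1) ranked at least 20 points higher in KO at starts and 1 (Aldoa, through its missing call) when ranked over all genes, against 0 at gene ends. The causes were not tested. The narrower windows and flanks and stricter thresholds leave fewer regions by construction. Read depth is unknown and limits the calls of weak regions, which make up the counts of regions called in 1 genotype only.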
